A study of Rattus rattus with 24 samples.

Results

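Imprinted genes are expressed mainly from the copy inherited from the mother or from the father, and many of them regulate growth before and after birth. Mest, also known as Peg1, is a paternally expressed gene whose protein has an alpha/beta hydrolase fold, and in mice it promotes growth of the embryo. The set described here holds 8 such genes, Mest, Peg3, Dlk1, Plagl1, Grb10, Ndn, Peg10 and Snrpn, which were chosen by name because Mest had been seen to fall with the thyroid hormone triiodothyronine (T3). A single-symbol probe set was found for 7 of the 8, out of 14217 genes measured this way. Peg3 had none in the annotation used here and was not analysed. Probe sets annotated to Apeg3, its antisense gene, averaged 6.10 to 12.1 on the log2 scale and were not counted as Peg3.

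Expression was measured on 24 rat microarrays in cultures of oligodendrocyte progenitor cells (OPCs), the cells that give rise to the myelin-forming oligodendrocytes of the brain. The cells came from the cortex of rat pups aged 4 to 7 days, were selected with A2B5 beads and expanded with PDGF before treatment. The labels name the species Rattus rattus, while the study's methods name Sprague Dawley rats. The 8 groups, with 3 cultures each, were T3 (45 nM) plus quetiapine (1 μM), T3 alone, quetiapine alone and a vehicle control, each at 48 and 96 hours. Quetiapine is an antipsychotic drug, and the vehicle was DMSO. Every group, control included, was grown in a medium whose B27 supplement carries a small amount of T3, so no culture was free of the hormone. Each replicate number occurs in all 8 groups. The labels do not say what it stands for. It is read here as a set of cultures that received all treatments, from the correlations given below. Values are log2 expression after RMA (robust multi-array averaging), so a difference of 1 is a doubling.

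Array medians lay between 6.43 and 6.51. The OPC genes Pdgfra and Cspg4 averaged 12.1 and 8.03, and Mbp, a myelin protein, averaged 14.1. The astrocyte genes Gfap and Aqp4 averaged 13.3 and 12.1, so the cultures were not OPCs alone. The neuron genes Rbfox3 and Snap25 averaged 7.07 and 8.22. The microglia genes Aif1 and Itgam averaged 6.25 and 4.83, and the fibroblast gene Col1a1 averaged 6.03. The endothelial gene Pecam1 averaged 3.50 and did not exceed 3.68 in any array. In such cultures fewer cells of a type and less RNA per cell cannot be told apart, and the arrays do not distinguish the maternal from the paternal copy of a gene.

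Mest spanned the widest range of the 7 genes, with group means 2.17 apart between the highest and the lowest of the 8 groups. Ndn followed with 0.82, Plagl1 with 0.62, Grb10 with 0.59, Snrpn with 0.35, Peg10 with 0.21 and Dlk1 with 0.17. Mest was chosen for its fall with T3 in these same arrays, so its place at the top is a description and no finding. Averaged over all arrays, Mest stood at 8.66, Ndn at 12.5, Snrpn at 7.14, Plagl1 at 5.21, Grb10 at 4.77, Dlk1 at 4.69 and Peg10 at 3.61. These averages come from different probes and give no order between genes. Among all probe set averages, Peg10 stood at percentile 6.74, Dlk1 at 22.2 and Grb10 at 23.3. At levels this low, a flat value does not show that a gene was left unchanged.

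**Figure D1:**
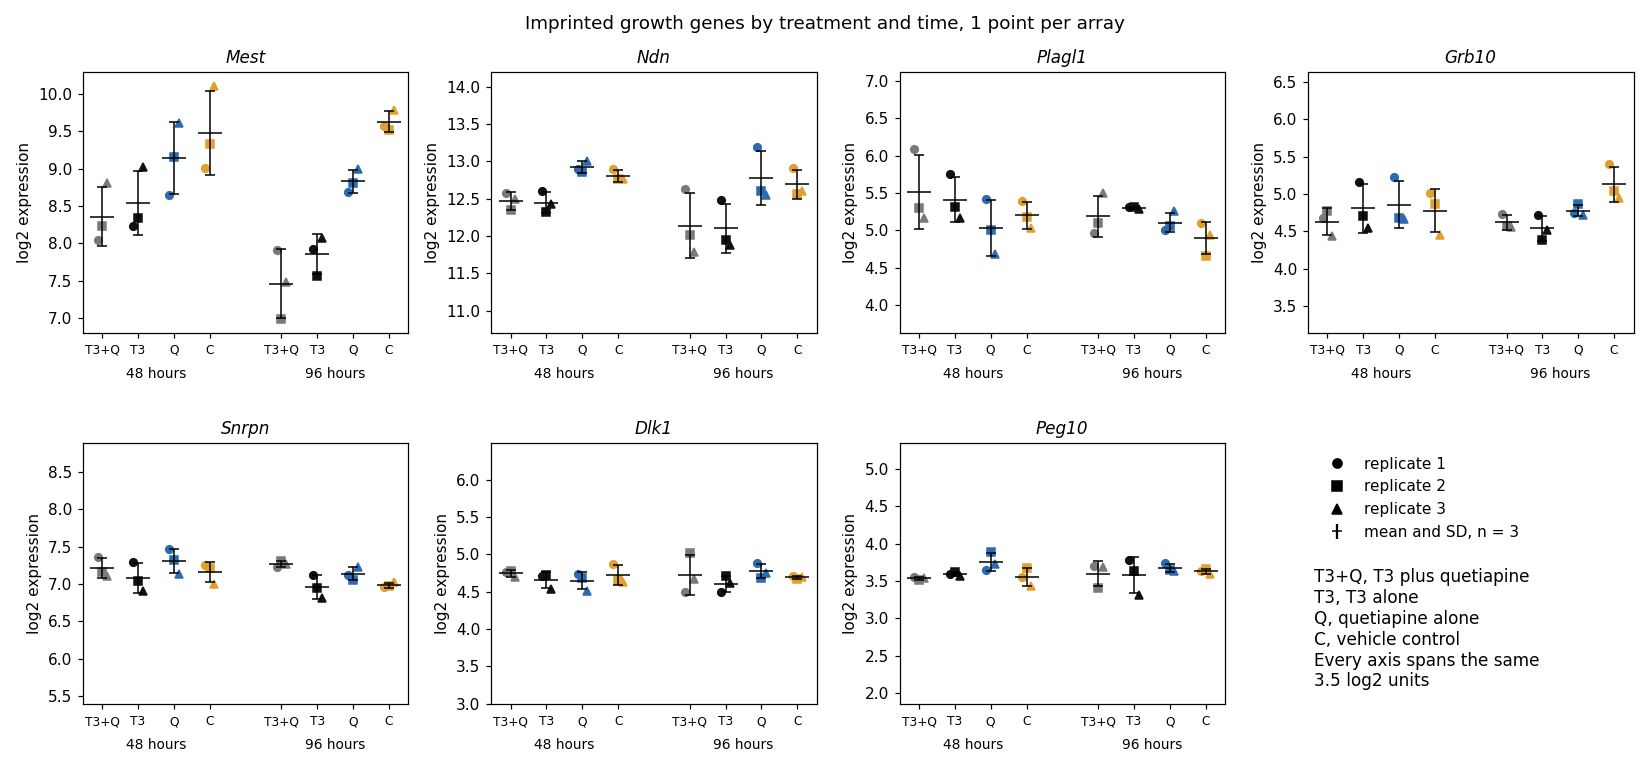
Log2 expression (vertical axes, each spanning the same number of units) of the 7 measured imprinted genes in each culture, for T3 plus quetiapine (T3+Q), T3, quetiapine (Q) and control (C) at 48 and 96 hours, with bars for the mean and SD of 3 cultures. Mest is lowest in T3+Q and highest in C at both times, Ndn is lower in both groups given T3, and Dlk1 and Peg10, both at low levels, are nearly flat.

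At 96 hours Mest was at 7.91, 6.99 and 7.48 in T3 plus quetiapine, at 7.93, 7.57 and 8.08 in T3, at 8.69, 8.81 and 9.0 in quetiapine, and at 9.57, 9.52 and 9.79 in control cultures. The 6 cultures given T3 all lay below the 6 without added T3, and the 3 quetiapine cultures lay between the T3 and the control cultures. At 48 hours the values were 8.04, 8.23 and 8.81 in T3 plus quetiapine, 8.24, 8.35 and 9.02 in T3, 8.65, 9.15 and 9.62 in quetiapine, and 9.0, 9.33 and 10.10 in control cultures. Here only T3 plus quetiapine lay wholly below control, and replicate 3 was the highest of the 3 in every treatment. Within each replicate number the order was nevertheless the same at both times, with T3 plus quetiapine lowest, then T3, then quetiapine, then control.

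The group means of Mest, from lowest to highest, were 7.46 ± 0.461 in T3 plus quetiapine at 96 hours, 7.86 ± 0.263 in T3 at 96 hours, 8.36 ± 0.399 in T3 plus quetiapine at 48 hours and 8.54 ± 0.427 in T3 at 48 hours. Above them stood quetiapine at 96 hours with 8.83 ± 0.157, quetiapine at 48 hours with 9.14 ± 0.481, control at 48 hours with 9.48 ± 0.564 and control at 96 hours with 9.63 ± 0.142 (SD, n = 3 each). Each group overlapped the next in this order.

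The comparison of T3 with control is the one that led to the choice of Mest, so its values are a description and no test of Mest is given in it or in any other comparison that holds T3 or control cultures. The log2 change of Mest was -0.94 (SE 0.334) at 48 hours and -1.77 (SE 0.206) at 96 hours, and T3 was lower in 3 of 3 replicates at each time. At 48 hours limma (linear models with moderated variances, called at a Benjamini-Hochberg adjusted p under 0.05 over all probe sets) called 0 of the 6 other members, against 1.42% of all genes, with Ndn under an unadjusted p of 0.05. With the replicate number as a block (a term for the set of cultures) it called Ndn, against 12.9% of all genes. At 96 hours it called 1 of the 6, Grb10, as lower, against 14.7% of all genes, and with the block 3 of the 6, Ndn and Grb10 lower and Plagl1 higher, against 30.1%. Nothing is read from these counts. In the same description quetiapine differed from control in Mest by -0.34 (SE 0.334) at 48 hours and -0.80 (SE 0.206) at 96 hours. T3 plus quetiapine differed from control by -1.12 and -2.17, and from T3 alone by -0.18 and -0.40.

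T3 plus quetiapine against quetiapine alone sets 2 groups side by side that the comparison behind the choice did not hold, although its standard error came from all 12 arrays of the time point. It was used to ask whether Mest also differed where T3 was added to the drug. These cultures share replicate numbers with the T3 and control cultures, and the comparison was chosen with the fall known. It is therefore no independent check of that fall. At 96 hours Mest was 2.58-fold lower in T3 plus quetiapine than in quetiapine (log2 change -1.37, SE 0.206, limma adjusted p = 0.00389). The 3 replicates differed by -0.77, -1.82 and -1.52, and no array of either group overlapped the other. Leaving out any of the 12 arrays in turn left adjusted p between 0.000986 and 0.0217. In a fit on the 6 arrays of these 2 groups alone, added after the data had been seen, the SE was 0.226 and adjusted p was 0.0315. At 48 hours Mest was 1.72-fold lower (log2 change -0.78, SE 0.334), with replicate differences of -0.61, -0.93 and -0.81. The group ranges overlapped and the adjusted p was 0.447. With the replicate block it was 0.000412. The log2 change at 96 hours was -0.59 (SE 0.417) beyond that at 48 hours, a difference that did not pass the test (adjusted p = 0.899).

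**Figure D2:**
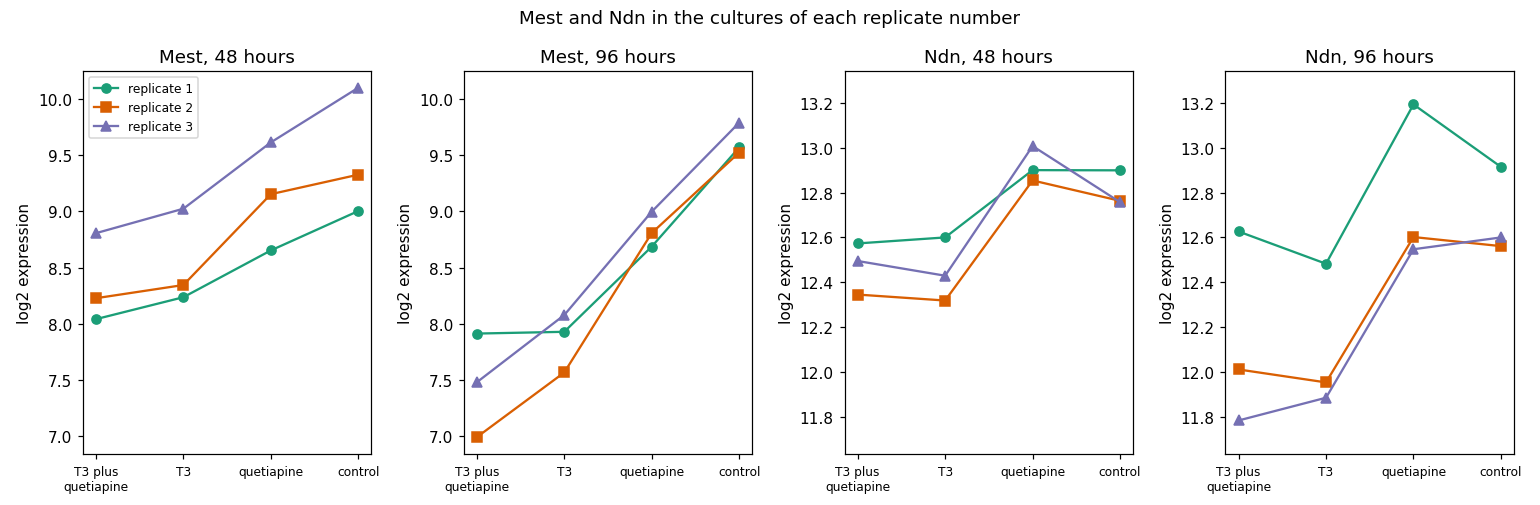
Log2 expression (vertical axes) of Mest and Ndn in T3 plus quetiapine, T3, quetiapine and control cultures (horizontal axes) at 48 and 96 hours, with 1 line for each of the 3 replicate numbers. The Mest lines rise in the same order in every replicate, while the Ndn lines split into groups with and without added T3.

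Between 48 and 96 hours Mest fell in T3 plus quetiapine by 0.90 on the log2 scale (SE 0.295, limma adjusted p = 0.0341), with replicate differences of -0.13, -1.24 and -1.33. This call was lost without replicate 2 or replicate 3 of T3 plus quetiapine at either time, and adjusted p ranged from 0.0134 to 0.190 over the arrays left out. The standard error came from all 24 arrays, and with only the 12 arrays of T3 plus quetiapine and quetiapine adjusted p was 0.0458. It was the only call among the 7 members, against 27.2% of all genes in that comparison. In quetiapine cultures the change of Mest over the same interval was -0.31 (SE 0.295, adjusted p = 0.666), and limma called 0 of 7 members against 3.43% of genes, with none under an unadjusted p of 0.05. In T3 cultures Mest moved by -0.68 and in control cultures by 0.15, again as a description. None of the 6 other members was called over time in T3 (8.34% of genes called) or in control cultures (0.0281% of genes called), and none had an unadjusted p under 0.05.

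Markers of dividing cells were also lower in T3 plus quetiapine than in quetiapine at 96 hours. In control cultures their mean level spanned 9.59 to 9.94 at 48 hours and 9.27 to 9.51 at 96 hours. The group mean of Mest there was 9.48 and then 9.63, with replicate differences of 0.57, 0.20 and -0.31. At 96 hours the mean level of 14 proliferation genes was 8.87, 7.10 and 7.62 in T3 plus quetiapine and 9.23, 8.27 and 9.05 in quetiapine. All 14 were lower on average in T3 plus quetiapine, with a median change of -1.01 against -0.01 over all genes. None of the 14 was called by limma, 10 had an unadjusted p under 0.05, and 10 were called lower with the replicate block. Of all genes, 9.24% were called in either direction in this comparison, and 23.8% with the block. OPC markers spanned 8.97 to 9.30 in T3 plus quetiapine and 9.30 to 9.79 in quetiapine, with 3 of 8 called lower, against the same 9.24% of all genes. Myelinating oligodendrocyte markers moved the other way, at 11.45, 12.43 and 12.62 in T3 plus quetiapine and 10.68, 11.33 and 11.51 in quetiapine. Of these, 4 of 12 were called higher, against 9.24% of all genes, and 7 with the block, against 23.8%. Astrocyte markers spanned 9.45 to 10.1 and 9.58 to 10.4, and neuron markers 7.38 to 7.57 and 7.47 to 7.67, in the same order of groups. The part of these shifts in the difference of Mest was not tested.

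Ndn encodes necdin, a MAGE-family protein of postmitotic neurons that restrains growth, and it is paternally expressed in the chromosomal region lost in Prader-Willi syndrome. At 48 hours its arrays split by whether T3 had been added. It was at 12.57, 12.34 and 12.49 in T3 plus quetiapine, at 12.60, 12.32 and 12.43 in T3, at 12.90, 12.85 and 13.01 in quetiapine, and at 12.90, 12.76 and 12.76 in control cultures. No culture given T3 reached the lowest culture without added T3. At 96 hours it was at 12.63, 12.01 and 11.78 in T3 plus quetiapine, at 12.48, 11.95 and 11.88 in T3, at 13.19, 12.60 and 12.55 in quetiapine, and at 12.92, 12.56 and 12.60 in control cultures. Replicate 1 was the highest in all 4 treatments at 96 hours, and T3 plus quetiapine overlapped both quetiapine and control there.

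At 48 hours Ndn fell in T3 plus quetiapine against quetiapine by 0.45 on the log2 scale (SE 0.0904, limma adjusted p = 0.0467), the only call among 7 members against 1.32% of all genes. The call was close to the limit. It was lost when any array other than T3 replicate 1 was left out (11 of 12, adjusted p 0.0391 to 0.196), after median centring (0.0687), in 1 fit of 24 arrays (0.465) and in a fit on the 6 arrays of the 2 groups (0.126). It held with the replicate block (adjusted p = 0.00275). At 96 hours the change was -0.64 (SE 0.243, adjusted p = 0.145) and lower in 3 of 3 replicates. Without replicate 1 of T3 plus quetiapine it was -0.88 with adjusted p = 0.0342, and with the replicate block adjusted p was 0.00111. Mest was the only member called at that time, against 9.24% of all genes. With the block Mest, Plagl1 and Ndn passed at 48 hours (10.0% of all genes passed), and Mest and Ndn at 96 hours (23.8% of all genes passed).

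Quetiapine against T3 gave the same split. Ndn was higher in quetiapine at 48 hours by 0.47 on the log2 scale (limma adjusted p = 0.0278), the only call among the 6 members tested there, against 2.15% of all genes. This call was lost without any of quetiapine replicates 1, 2 and 3 or T3 replicates 2 and 3 (adjusted p 0.0218 to 0.125), and in 1 fit of 24 arrays (0.366). With the block Ndn and Snrpn were called higher and Plagl1 lower, against 12.1% of all genes. At 96 hours the difference was 0.67, the arrays of the 2 groups did not overlap, and adjusted p was 0.196, or 0.00107 with the block. Limma called 0 of 6 members at that time, against 3.31% of all genes, with Ndn alone under an unadjusted p of 0.05. Ndn was also the only call with the block, against 14.4% of all genes.

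Set against control, Ndn in T3 plus quetiapine changed by -0.34 at 48 hours (limma adjusted p = 0.0566, with the block 0.00515) and by -0.55 at 96 hours (adjusted p = 0.116, with the block 0.000649). The first passed without T3 replicate 1 (adjusted p = 0.0481), the second without replicate 1 of T3 plus quetiapine (-0.80, adjusted p = 0.0237). T3 alone differed from control by -0.36 and -0.59, as a description. Quetiapine alone differed from control by 0.11 at 48 hours and 0.09 at 96 hours, and its replicates overlapped those of control at both times.

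**Figure D3:**
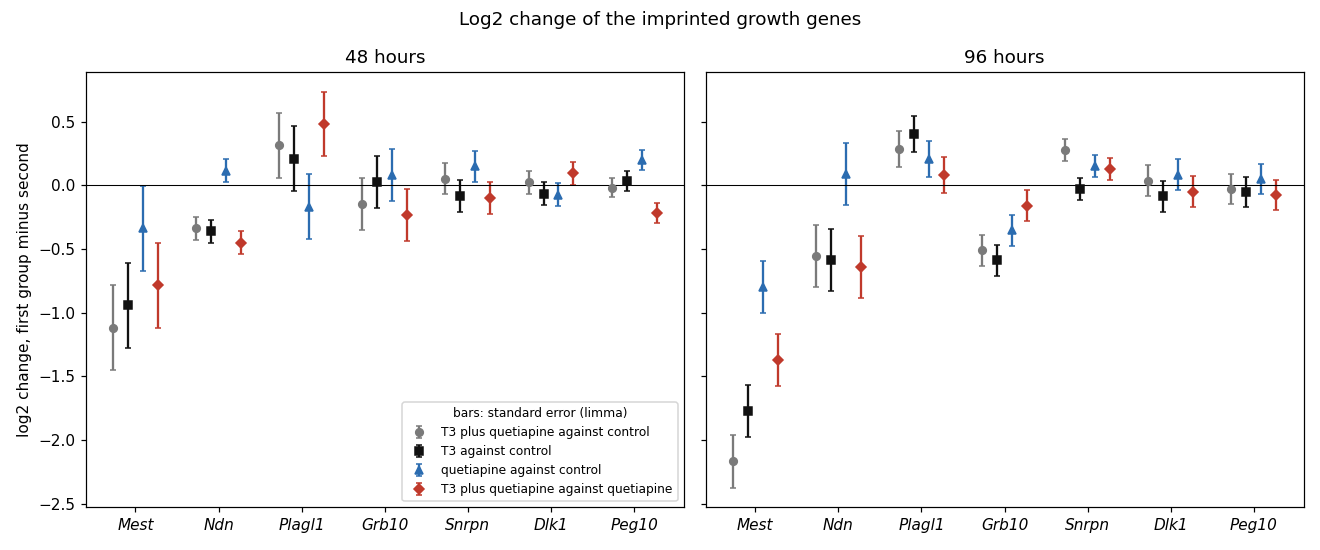
Log2 change (vertical axis) with its limma standard error for the 7 genes at 48 hours (left) and 96 hours (right), in T3 plus quetiapine, T3 and quetiapine each against control and in T3 plus quetiapine against quetiapine. Mest lies below 0 in every comparison, down to -2.17 at 96 hours, while Ndn lies below 0 in the 3 comparisons that add T3 and near 0 for quetiapine.

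Grb10 is an adaptor protein that binds the insulin and IGF1 receptors and restrains their signal. In mice it is expressed from the maternal copy in most tissues and from the paternal copy in neurons. At 96 hours it was at 4.73, 4.57 and 4.55 in T3 plus quetiapine, at 4.72, 4.39 and 4.52 in T3, at 4.75, 4.86 and 4.72 in quetiapine, and at 5.39, 5.04 and 4.95 in control cultures. All 9 treated cultures lay below the lowest control culture. Against control it fell by 0.51 on the log2 scale in T3 plus quetiapine (SE 0.123, limma adjusted p = 0.00905), and adjusted p stayed between 0.00789 and 0.0353 with any array left out. The gene has 2 further probe sets, which averaged 4.01 and 3.96 over all arrays and changed by 0.01 (adjusted p = 0.952) and 0.21 (adjusted p = 0.143). They stood at percentiles 12.1 and 11.3 of all probe set averages, where a flat value does not show that a gene was left unchanged. The call therefore rests on the probe set with the highest mean. The mean over the gene's probe sets changed by -0.09 (limma adjusted p = 0.369). In quetiapine against control the probe set with the highest mean changed by -0.35 (adjusted p = 0.129, with the block 0.0291). In T3 against control it changed by -0.59, as a description. At 48 hours the 4 groups overlapped, between 4.43 and 5.22.

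Snrpn encodes SmN, a core protein of the spliceosome found mainly in brain, and is paternally expressed. At 96 hours it was at 7.23, 7.31 and 7.27 in T3 plus quetiapine, at 7.13, 6.95 and 6.81 in T3, at 7.12, 7.06 and 7.23 in quetiapine, and at 6.96, 6.98 and 7.02 in control cultures. T3 plus quetiapine stood above T3 and control in every culture. Against control it rose by 0.28 on the log2 scale (SE 0.0859, limma adjusted p = 0.0299). The call was lost without control replicate 1, 2 or 3 or T3 plus quetiapine replicate 2 or 3 (adjusted p 0.0167 to 0.0935), and in 1 fit of 24 arrays (0.0509). The 2 probe sets annotated to Snurf and Snrpn together averaged 11.6 and 10.8 over all arrays, above the 7.14 of the probe set used here. They changed by 0.07 (limma adjusted p = 0.652) and 0.22 (adjusted p = 0.154), so the call rests on the single-symbol probe set alone. Against T3 alone the difference was 0.31 (adjusted p = 0.0984), and it passed with the block (0.0469) or without T3 replicate 1 (0.0450).

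Snrpn higher and Grb10 lower were the only calls among the 6 members tested in T3 plus quetiapine against control at 96 hours, against 35.1% of all genes. With the block Ndn was called as well, against 47.6%. At 48 hours limma called 0 of 6 against 7.34% of all genes, with Ndn alone under an unadjusted p of 0.05. With the block it called 2, Plagl1 higher and Ndn lower, against 27.0%. In quetiapine against control it called 0 of 6 at 48 hours (0.183% of genes; Peg10 under an unadjusted p of 0.05) and 0 of 6 at 96 hours (7.25% of genes; Grb10 under that limit and called with the block, against 21.5%). Against T3 alone, limma called in T3 plus quetiapine 0 of 6 at 48 hours (0.0281% of genes; none under an unadjusted p of 0.05) and 0 of 6 at 96 hours (2.33% of genes; Snrpn under that limit and called with the block, against 14.9%). The interaction of T3 and quetiapine, which asks whether the combined change departs from the sum of the single changes, was called by limma for 0 of 6 at 48 hours (0% of genes; Peg10 under an unadjusted p of 0.05) and for 0 of 6 at 96 hours (0.0492% of genes; Grb10 under that limit). Between 96 and 48 hours, comparisons added after the data had been seen, limma called 0 of 7 members for a difference in the change of T3 plus quetiapine against quetiapine (0.0563% of genes). It called 0 of 6 for T3 plus quetiapine against T3 (0.0141%), T3 plus quetiapine against control (8.17%), quetiapine against control (0.134%) and T3 against control (0.0563%), with Grb10 under an unadjusted p of 0.05 in the last and none in the others.

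Plagl1, also known as Zac1, is a zinc finger transcription factor that restrains cell division. At 48 hours it was at 6.08, 5.30 and 5.17 in T3 plus quetiapine, at 5.75, 5.31 and 5.17 in T3, at 5.42, 5.0 and 4.68 in quetiapine, and at 5.39, 5.18 and 5.03 in control cultures. The groups overlapped, and replicate 1 was the highest in every treatment. T3 plus quetiapine was above quetiapine in 3 of 3 replicates, by 0.48 on average (limma adjusted p = 0.575, with the block 0.0157). At 96 hours it was at 4.97, 5.10 and 5.49 in T3 plus quetiapine, at 5.31, 5.31 and 5.28 in T3, at 5.0, 5.06 and 5.25 in quetiapine, and at 5.09, 4.66 and 4.94 in control cultures. T3 stood above control there, by 0.40 as a description, which is the opposite direction to Mest.

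Dlk1, a membrane protein related to the Notch ligands, ranged only from 4.49 to 5.02 over the 24 arrays. Peg10, a gene derived from a retrotransposon and needed for the placenta in mice, ranged from 3.31 to 3.88. Peg10 was lower in T3 plus quetiapine than in quetiapine at 48 hours in all 3 replicates, by 0.21 (limma adjusted p = 0.335). Neither gene was called in any comparison in which it was tested. Of the 7 genes, 4 had an average of 5 or more, which leaves out Grb10, Dlk1 and Peg10.

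Over the 8 group means, Pearson's r with Mest was 0.887 for Ndn, 0.823 for Grb10, 0.304 for Peg10, 0.0993 for Dlk1, -0.109 for Snrpn and -0.534 for Plagl1. The groups share their sets of cultures, and these values are a description only. Among the 2121 genes whose group means spanned more than 1, those most like Mest by this measure were Maged2 (r = 0.998), Basp1 (0.997), Unc119 (0.996), Gprasp2 (0.995) and Fam210b (0.995). Maged2 belongs to the MAGE family, as necdin does, and Basp1 is a membrane protein of growing axons. These 5 genes changed by -1.21, -0.72, -0.96, -0.76 and -1.07 in that order in T3 plus quetiapine against quetiapine at 96 hours, as a description. Over the 24 single arrays their r was between 0.832 and 0.939. By that measure they ranked 215, 19, 134, 105 and 12 of the 2121 in the same order, and Sfrp1 ranked first (r = 0.965). The order of likeness therefore depended on the measure.

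**Figure D4:**
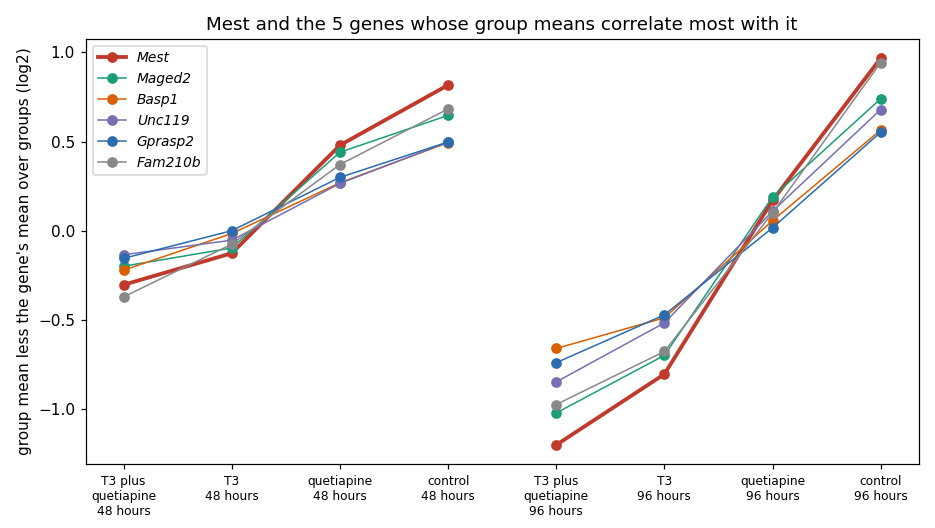
Group means less the gene's own mean over the 8 groups (vertical axis, log2) for Mest and the 5 genes with the highest Pearson's r over group means, by treatment and time (horizontal axis). All 6 genes rise in the same order from T3 plus quetiapine to control at each time, and Mest spans the widest range. The 5 genes were chosen by these same means, so the shared order is a description and no finding.

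Other imprinted genes, from lists of textbook examples, moved in both directions when T3 was added to quetiapine for 96 hours. Among paternally expressed genes 13 of 20 were measured, 2 rose and 1 fell, against 9.24% of all genes called in either direction, with a median change of -0.09 beside -0.01 over all genes. Dio3, the deiodinase that inactivates T3, was at 7.03, 9.55 and 9.24 in T3 plus quetiapine and at 5.83, 5.56 and 5.24 in quetiapine. It was 8.38-fold higher (limma adjusted p = 0.0142), with replicate 1 showing the smallest rise. Slc38a4, an amino acid transporter, rose by 0.95 on the log2 scale (adjusted p = 0.0187). Nnat, which encodes the small membrane protein neuronatin, was at 10.53, 9.99 and 9.82 in T3 plus quetiapine and at 11.30, 11.35 and 11.42 in quetiapine, and fell by 1.24 (adjusted p = 0.00607). Nnat also stood high in likeness to Mest over group means, at rank 15 (r = 0.989), and at rank 87 over single arrays.

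Among maternally expressed genes 18 of 20 were measured, and in the same comparison 1 rose and 1 fell, against the same 9.24% of all genes, with a median change of -0.01. Cdkn1c, the cell cycle inhibitor p57, was at 10.74, 10.47 and 10.49 in T3 plus quetiapine and at 11.97, 12.35 and 12.35 in quetiapine. It fell by 1.66 on the log2 scale (limma adjusted p = 0.000129). Tssc4 rose by 0.36 (adjusted p = 0.0169). Copg2, which lies beside Mest, changed by -0.04 (adjusted p = 0.801), and Cep41, the next gene measured there, by -0.52 (adjusted p = 0.140, with the block 0.00575). These 2 neighbours were taken from a RefSeq table of the black rat assembly Rrattus_CSIRO_v1, and were chosen after the data had been seen. Against control at 96 hours, 5 of 13 paternally expressed genes rose in T3 plus quetiapine and 4 fell, and 2 of 18 maternally expressed genes rose and 3 fell, against 35.1% of all genes called. The falls there included Osbpl5, an oxysterol-binding protein relative, by 1.19 (adjusted p = 0.000197), and the rises included Igf2r, which clears IGF2, by 0.55 (adjusted p = 0.0116).

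**Figure D5:**
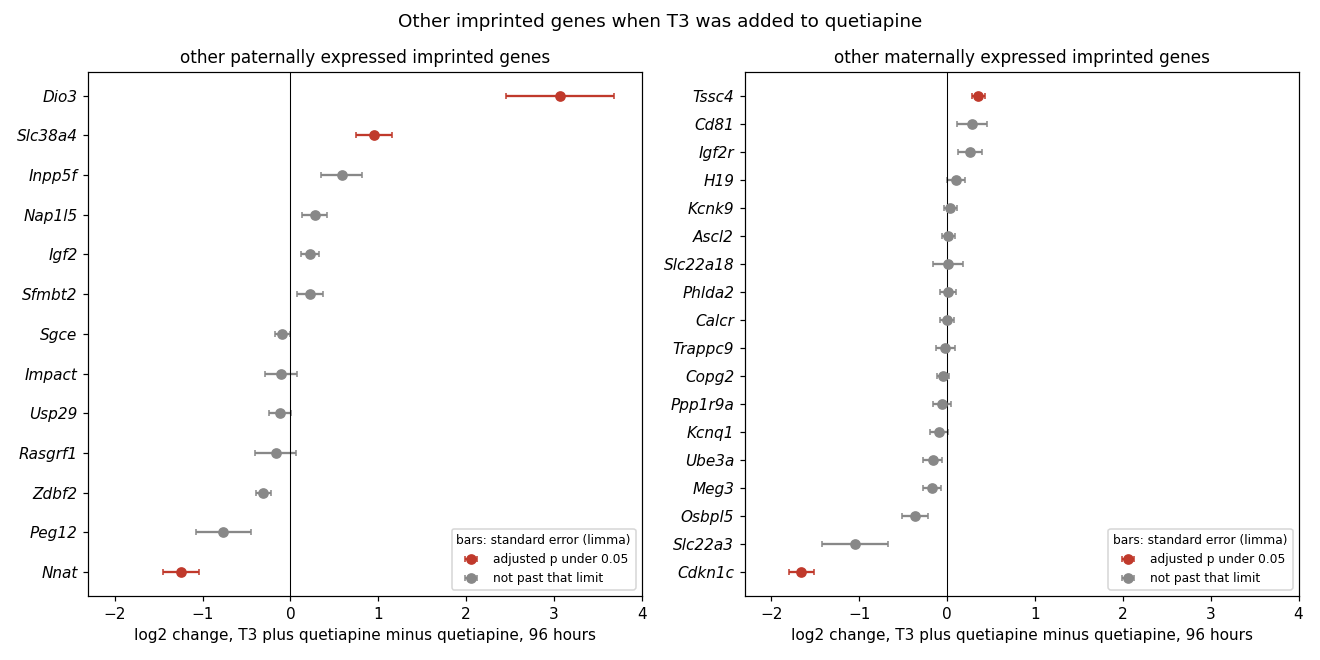
Log2 change in T3 plus quetiapine against quetiapine at 96 hours (horizontal axes, bars are limma standard errors) for the measured genes of the paternally (left) and maternally (right) expressed lists. Dio3 and Slc38a4 lie furthest to the right, Nnat and Cdkn1c furthest to the left, and most genes lie near 0.

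Partners of the members were counted in T3 plus quetiapine against quetiapine, where 9.24% of all genes were called. Of 16 genes of insulin and IGF signalling, the pathway that Grb10 restrains, 0 rose and 3 fell at 96 hours, against that 9.24%. They were the receptor Igf1r by 1.01 on the log2 scale (limma adjusted p = 0.00107), the kinase Akt1 by 0.56 (adjusted p = 0.00508) and the ubiquitin ligase Nedd4, which binds Grb10, by 0.29 (adjusted p = 0.0497). The median change of the 16 was -0.0023, beside -0.0065 over all genes. Of 17 measured Notch pathway genes, listed as partners of Dlk1, 1 rose and 3 fell, against 9.24% of all genes. The protease Adam17 rose by 0.47 (adjusted p = 0.0104), and the target genes Hey2, Hes5 and Hes1 fell by 1.40 (adjusted p = 0.000898), 1.57 (adjusted p = 0.00817) and 1.30 (adjusted p = 0.0434). Of 6 measured Sm proteins that assemble with the product of Snrpn, 0 rose and 3 fell against 9.24% of all genes, Snrpd1 by 0.83 (adjusted p = 0.0253), Snrpf by 0.54 (adjusted p = 0.0263) and Snrpd3 by 0.36 (adjusted p = 0.0428), while Snrpn itself changed by 0.13. The proliferation markers given above were lower and the myelinating oligodendrocyte markers higher in the same cultures, and their part in these counts was not tested.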

How the data were processed

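RNA from 24 cultures was hybridised to Affymetrix rat arrays. The authors background-corrected, quantile-normalised and summarised the signals with RMA and deposited log2 values for 31099 probe sets. Neither an RMA version nor a genome build is given in the sources used here. Raw signals and pretreatment cultures were not analysed. After 57 control probe sets were left out, 31042 were tested with limma 3.58.1 in R 4.3.3. Each time point was fitted over its 12 arrays with 4 group means, and comparisons between times over 24 arrays. P-values were Benjamini-Hochberg adjusted over all probe sets and called under 0.05. A gene was represented by whichever of its single-symbol probe sets had the highest average. Probe names came from the platform annotation, in which 20826 probe sets had 1 symbol, 436 several and 9780 none. The number of arrays limits the precision.

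The members, lists and comparisons were chosen with earlier results of these data known. All members were named, and from each other list up to 4 called genes with the largest change per comparison, of which a selection is printed. Likeness to Mest was ranked by Pearson's r over group means among genes whose group means spanned more than 1. Limma was tested on simulated data.

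The design gives each replicate number all conditions. Deviations from group means of arrays with the same number correlated at 0.430 to 0.777 at 48 hours and 0.309 to 0.690 at 96 hours (18 pairs each), against at most -0.00478 and 0.243 for different numbers, so the numbers pair the arrays. The fit without the block is the main result and leaves this pairing out. It was kept as the main fit because the study's methods name no term for the replicate, and the fit with the block was an alternative. Other alternatives were median centring, a mean log2 value of 5 or more, the mean of a gene's probe sets, trend and robust settings, 1 fit of 24 arrays, leaving out each array and, added after the data were seen, a fit on the arrays of T3 plus quetiapine and quetiapine alone. The submitters call the 3 replicates biological, without naming animals or isolations, so p-values measure the spread between these cultures.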

Additional observations from a re-analysis of the deposited data

How the results depend on the processing

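No direction turned over where the main fit or an alternative called the member. Changes of sign in members that neither fit called were not counted, and T3 against control was left out of this check. Counts of members called moved as follows. With the replicate block, T3 against control (without Mest) counted 1 at 48 hours against 0 and 3 at 96 hours against 1, T3 plus quetiapine against control 2 at 48 hours against 0 and 3 at 96 hours against 2, T3 plus quetiapine against quetiapine 3 at 48 hours and 2 at 96 hours against 1 each, quetiapine against T3 3 at 48 hours against 1 and 1 at 96 hours against 0, and quetiapine against control and T3 plus quetiapine against T3 1 each at 96 hours against 0. The block changed no other count. In T3 plus quetiapine against control at 48 hours the filter on low values, the trend and robust settings, and the mean of a gene's probe sets gave 1 each against 0, through Ndn (adjusted p 0.0378 to 0.0470). At 96 hours that filter and the mean of probe sets gave 0 against 1 in T3 against control. In T3 plus quetiapine against control they gave 1 against 2. Grb10 fell below the filter, and its other probe sets, at low levels, did not show a fall of the same size. In 1 fit of 24 arrays, T3 plus quetiapine against quetiapine gave 0 at 48 hours (Ndn adjusted p = 0.465) and 2 at 96 hours, quetiapine against T3 gave 0 at 48 hours and 1 at 96 hours, and T3 against control gave 2 at 96 hours. In T3 plus quetiapine against control at 96 hours that fit lost Snrpn (adjusted p = 0.0509) and the count was 2, as Ndn passed. Median centring gave 0 in T3 plus quetiapine against quetiapine at 48 hours (Ndn adjusted p = 0.0687). The fit on the arrays of T3 plus quetiapine and quetiapine alone, added after the data were seen, gave 0 there too (0.126) and moved no other count of the comparisons it could make. The causes were not tested.

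With each array left out in turn, counts ranged from 0 to 1 in T3 plus quetiapine against control, T3 plus quetiapine against quetiapine and quetiapine against T3 at 48 hours and in T3 plus quetiapine against T3 at 96 hours. At 96 hours they ranged from 0 to 2 in T3 against control, from 1 to 3 in T3 plus quetiapine against control and from 1 to 2 in T3 plus quetiapine against quetiapine, and between times in T3 plus quetiapine from 0 to 2. The differences between times, added after the data were seen, called no member under any of these settings.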
